A study of Mus musculus with 29 samples.

Results

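Cxcl9, Cxcl10 and Cxcl16 are chemokines, and Cxcr3 and Cxcr6 are the receptors through which lymphocytes read them. These 5 genes were followed by name, in every library and cell type, out of 27827 genes listed in any of the deposited tables. All 5 had rows in the tables of young brain (19704 genes) and aged brain (27514 genes). In blood 4 of the 5 had rows among 16623 genes, and Cxcl9 was not analysed here in blood.

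The data were single-cell RNA profiles made by Drop-seq, which captures cells in droplets with barcoded beads, from 29 libraries of C57BL/6J mice after transient occlusion of the middle cerebral artery or sham surgery. Brain libraries came from 4 to 5 pooled hemispheres, digested with papain in the presence of the transcription inhibitor actinomycin D and sorted for leukocytes with high CD45, microglia and endothelial cells. Blood libraries held leukocytes pooled from 2 mice. Libraries were therefore pools, and p-values measured the spread between pools.

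The young brain groups, all male mice of 8 to 10 weeks, were sham at day 2 (4 libraries), stroke at day 2 (4 libraries) and stroke at day 14 (4 libraries). The blood groups, also young males, were sham at day 2 (4 libraries), stroke at day 2 (4 libraries) and stroke at day 14 (3 libraries). Brain libraries of aged mice (17 to 20 months old) came from sham at day 2 (1 male, 1 female), stroke at day 2 (1 male, 2 female) and stroke at day 14 (1 female). No sham library of day 14 was used, the day 2 sham libraries served as the reference for either stroke time, and time since surgery cannot be told apart from stroke at day 14.

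The chemokines CXCL9 and CXCL10 bind CXCR3, a receptor of activated T helper 1 cells, cytotoxic T cells and NK cells, and guide these cells into inflamed tissue. Transcription of Cxcl9 is known to depend mainly on interferon-gamma, whereas Cxcl10 also responds to type I interferon and to NF-kappaB. CXCL16 is made as a membrane-bound protein and as a soluble form released by ADAM10 and ADAM17, and its receptor CXCR6 marks effector, tissue-resident and gamma-delta T cells. In the brain, microglia, infiltrating monocytes and dendritic cells are known sources of these chemokines in infection and injury.

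Cxcl9 and Cxcl10 are neighbours on the minus strand of chromosome 5. In GENCODE vM21 (GRCm38) Cxcl9 spans chr5:92321347-92328079 and Cxcl10 spans chr5:92346638-92348889, with 18558 bases from the end of one to the start of the other. Cxcl16 lies at chr11:70453983-70459984 (minus strand), Cxcr3 at chrX:101731535-101734269 (minus strand) and Cxcr6 at chr9:123806475-123811760 (plus strand). The promoters of Cxcl9 and Cxcl10 are shown because, of these neighbours, Cxcl9 was called between day 14 and day 2 in microglia and dendritic cells and Cxcl10 was not, a difference between the genes that was not tested. The RefSeq promoter table (GRCm38.p6) matched 4 of the 5 genes, all but Cxcl16. The 250 bases before each start, at chr5:92328080-92328329 for Cxcl9 and chr5:92348890-92349139 for Cxcl10, read 5′ to 3′ on the gene's strand, with motif matches in capitals:
Cxcl9: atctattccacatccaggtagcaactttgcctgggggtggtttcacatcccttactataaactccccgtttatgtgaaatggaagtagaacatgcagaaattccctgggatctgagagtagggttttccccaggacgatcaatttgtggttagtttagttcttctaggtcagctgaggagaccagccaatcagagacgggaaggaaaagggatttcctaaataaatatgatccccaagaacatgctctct
Cxcl10: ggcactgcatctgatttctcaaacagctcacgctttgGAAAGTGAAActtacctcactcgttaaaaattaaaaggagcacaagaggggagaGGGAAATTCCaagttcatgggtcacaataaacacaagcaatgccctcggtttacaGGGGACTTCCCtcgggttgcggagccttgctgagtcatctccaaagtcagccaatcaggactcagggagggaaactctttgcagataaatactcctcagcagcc

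Both strands were searched for 3 motifs, the interferon-stimulated response element (GAAA, any 2 bases, GAAA), the gamma-activated site TTCNNNGAA and the NF-kappaB consensus. The Cxcl10 window held the response element at 213 to 204 bases before the start and the NF-kappaB consensus at 159 to 150 and, in overlapping frames, at 104 to 94. Of 32851 mouse promoter windows of the same length, 2.98% held the response element, 7.02% held the gamma-activated site and 7.25% held the NF-kappaB consensus. The Cxcl9 window held none of the 3 strings, which says only that these letters are not in this window.

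The 18 brain libraries held 55268 cells and 819438 to 5855047 counts each, and the 11 blood libraries held 51709 cells and 966914 to 5232662 counts each. The authors' parent types matched their marker genes in the types described here. Several of the libraries used here stood apart in their markers, and 2 are described first. In young day 2 stroke library 3, only 58 cells were annotated as microglia, and their 8 microglial markers summed to 816.5 CPM (counts scaled to a common total), against 15530 to 16460 in the other 3 day 2 libraries. Their 6 monocyte markers summed to 871 CPM, against 24.5 to 333 in the other 3. In the aged male sham library, the microglial markers summed to 2363 CPM in T cells, against 50.6 to 265.8 CPM in the other aged T cell libraries, and 8 T cell markers summed to 233.8 CPM in microglia, against 1.53 to 57.7 CPM in the other aged microglia. Young brain libraries also split by the median mitochondrial share of a cell, 5 libraries under 1% (sham 1, day 2 stroke 1 and 2, day 14 stroke 1 and 2) and 7 above. Of 406 library pairs, 231 shared at least 1 cell barcode, at most 7.

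Levels below are CPM of the counts summed over all cells of a type in a library, for libraries with at least 20 cells of the type. Log2 fold changes are given with the standard error, from edgeR's quasi-likelihood test with Benjamini-Hochberg adjustment over all genes tested in that type.

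In microglia, the resident macrophages of the brain, all 3 chemokines rose after stroke, and Cxcl9 did so mainly at day 14. Cxcl9 was at 0 CPM in each of the 4 sham libraries, at 0.903, 0, 0 and 4.26 CPM at day 2, and at 20.3, 21.1, 43.6 and 13.2 CPM at day 14. The lowest day 14 library was thus above the highest day 2 library. The 0 of day 2 library 3 came from only 58 cells, where a level like that of day 14 could have gone unseen. The separation therefore rests on the other day 2 libraries. The 0 counts in sham allow at most 0.536 CPM over the group (3 counts of the summed total, counting error only).

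Against that limit Cxcl9 was at least 5.34-fold higher at day 2 (adjusted p = 0.0171) and at least 45.8-fold higher at day 14 (adjusted p = 0.000322), by edgeR's quasi-likelihood test. Across all genes tested in microglia, 31.4% were called at day 2 and 15.2% at day 14, and 15.7% and 10.6% were called as higher. The day 2 value rested on library 4, which held 11.67 of the 12.6 Cxcl9 counts. Without it 0.93 counts remained, under the floor of 3, so that no fold can be given, and the adjusted p was 0.179. With only the sham and day 2 libraries in the fit, Cxcl9 did not pass the filter on low counts and had no test. From day 2 to day 14 Cxcl9 rose by a log2 fold change of 3.52 ± 0.70 (edgeR adjusted p = 0.0141), in a comparison where 6.93% of genes were called and 3.47% were called as higher. That change was 3.18 without day 2 library 1 (adjusted p = 0.0736) and 5.50 without day 2 library 4 (adjusted p = 0.0184), which left 0.93 counts at day 2, so that this fitted value depends on the prior count. Over single libraries left out it ran from 3.10 to 5.50.

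Cxcl10 in microglia was at 12.8, 20.0, 37.1 and 3.30 CPM in sham. It was at 104, 122, 428 and 366 CPM at day 2, and at 671, 51.5, 140 and 215 CPM at day 14. Every stroke library was above every sham library, and the day 14 libraries spread over more than the whole day 2 range. The log2 fold change against sham was 3.81 ± 0.83 at day 2 (edgeR adjusted p = 0.00466) and 4.36 ± 0.82 at day 14 (adjusted p = 0.00328). Between day 14 and day 2 it was 0.56 ± 0.73 (adjusted p = 0.728), and it changed sign to -0.43 without day 14 library 1.

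Cxcl16, the transmembrane chemokine, was at 60.8, 61.0, 64.7 and 37.8 CPM in sham microglia. It was at 203, 217, 493 and 324 CPM at day 2 and at 234, 165, 301 and 186 CPM at day 14. The stroke and sham libraries did not overlap at either time. The log2 fold change was 2.46 ± 0.30 at day 2 (edgeR adjusted p = 0.000106) and 2.45 ± 0.29 at day 14 (adjusted p = 9.39e-05), and -0.01 ± 0.29 between the times (adjusted p = 0.995).

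Marker sums also differed between the groups of microglia. The 6 monocyte markers summed to at most 24.25 CPM in sham, to 24.5 to 871 CPM at day 2 and to 31.1 to 160.7 CPM at day 14. The 8 microglial markers summed to 19720 to 27220 CPM in sham and 15090 to 19380 CPM at day 14. Their part in the result was not tested. Leaving out day 2 library 3, whose microglia carried few microglial markers, changed none of the calls for the 3 chemokines in microglia. Within the libraries under 1% mitochondrial share, microglial Cxcl10 was at 12.8 CPM in the sham library, at 104 and 122 CPM at day 2 and at 51.5 and 671 CPM at day 14. In the other libraries its lowest stroke value was 140 CPM and its highest sham value 37.1 CPM, so the order of sham below stroke was seen on both sides of that split. Cxcr3 and Cxcr6 were low in microglia, with means over 12 libraries of 0.923 and 0.579 CPM, and did not pass the filter on low counts.

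**Figure D1:**
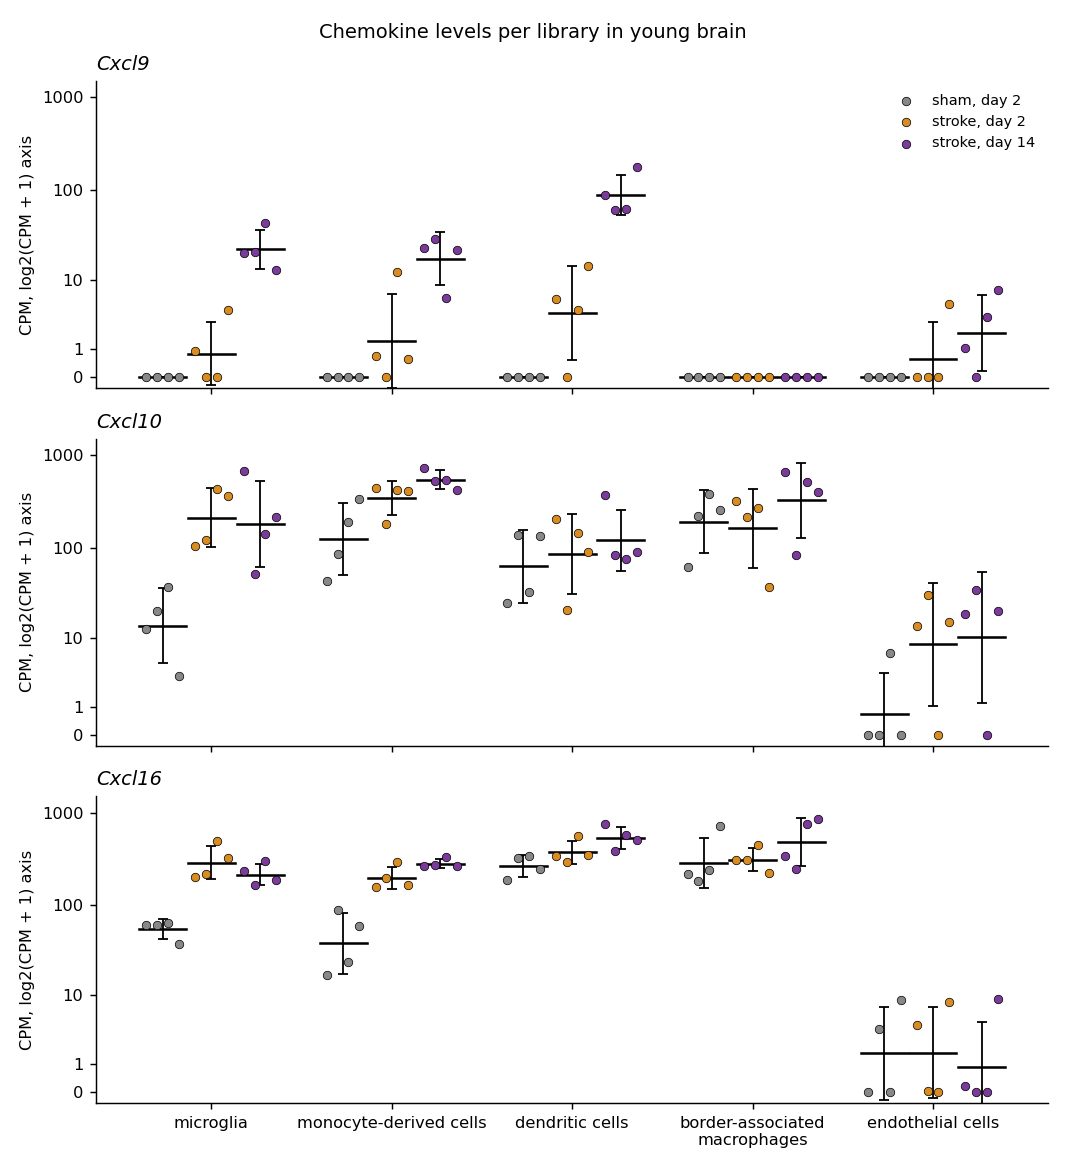
Levels of Cxcl9, Cxcl10 and Cxcl16 in 5 cell types of young brain. Each point is a library with at least 20 cells of the type, on a log2(CPM + 1) axis labelled in CPM, and bars show the mean and SD of log2(CPM + 1). Cxcl9 in microglia lies at 0 in sham and at 13.2 to 43.6 CPM at day 14, and in border-associated macrophages it lies at 0 in all 12 libraries.

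In monocyte-derived cells, which enter the brain from blood, Cxcl10 and Cxcl16 rose at both times. Cxcl10 was at 43.9, 85.2, 192 and 333 CPM in sham, at 447, 182, 420 and 412 CPM at day 2, and at 728, 532, 543 and 416 CPM at day 14. The day 2 range overlapped sham through its library 2, and the day 14 range did not. The monocyte markers of that library summed to 3680 CPM in these cells. They summed to 6750 to 7809 CPM in the other day 2 libraries, 6937 to 8993 CPM in sham and 6372 to 9214 CPM at day 14. Their part in the result was not tested. Within the libraries under 1% mitochondrial share, Cxcl10 was at 43.9 CPM in the sham library and at 182 and 447 CPM at day 2. In the other libraries sham ran from 85.2 to 333 CPM and day 2 from 412 to 420 CPM. With 1 sham library under 1%, the part of that split in the overlap cannot be judged and was not tested. The log2 fold change was 2.02 ± 0.46 at day 2 (edgeR adjusted p = 0.0163) and 2.58 ± 0.46 at day 14 (adjusted p = 0.00351). The percentage of genes called in these cells was 6.71 at day 2 and 5.15 at day 14, with 5.66 and 4.21 for genes called as higher. The fold changes of all genes tested had a median of 0.29 and 0.28 on the log2 scale. The day 2 call was lost without sham library 1 (adjusted p = 0.0749), without sham library 2 (adjusted p = 0.0626) and when libraries were scaled by their totals alone (1.54, adjusted p = 0.0859).

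Cxcl16 in monocyte-derived cells was at 17.1, 89.8, 23.9 and 59.7 CPM in sham. It was at 158, 199, 295 and 165 CPM at day 2 and at 266, 275, 330 and 266 CPM at day 14. Neither stroke group overlapped sham. In these cells the microglial markers summed to 45.9 to 534.7 CPM in sham, 270.3 to 770.5 CPM at day 2 and 291.4 to 2177 CPM at day 14. The 7 dendritic markers summed to 196.6 to 2723 CPM in sham, 674.2 to 1097 CPM at day 2 and 2101 to 3106 CPM at day 14, and the part of these markers in the results was not tested. The log2 fold change of Cxcl16 was 2.75 ± 0.45 at day 2 (edgeR adjusted p = 0.00194) and 3.19 ± 0.44 at day 14 (adjusted p = 0.000702).

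Cxcl9 in monocyte-derived cells was at 0 in all 4 sham libraries. It was at 0.695, 0, 12.4 and 0.577 CPM at day 2 and at 23.4, 29.0, 6.08 and 22.2 CPM at day 14. All 4 day 14 libraries were above sham, but sham held 228540 counts in all, where 0 counts allow up to 13.1 CPM, and day 14 was at least 1.41-fold higher (edgeR adjusted p = 0.409). None of the 3 chemokines was called between day 14 and day 2 in these cells, where 1.79% of genes were called by edgeR (145 genes, against 948 at an unadjusted p under 0.05 and 386 called by DESeq2). The Cxcl9 change of 2.31 ± 0.95 (edgeR adjusted p = 0.347) became 5.07 (adjusted p = 0.0283) without day 2 library 3, which alone held 12.4 CPM. With the replicate number as a block the change was 2.72 and was called (edgeR adjusted p = 0.022).

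In dendritic cells, which present antigen to T cells, Cxcl9 was the chemokine that was called. It was at 0 in the 4 sham libraries, at 5.95, 0, 4.21 and 14.5 CPM at day 2, and at 88.7, 61.4, 62.6 and 177 CPM at day 14. The day 14 libraries were all above the other 8. Day 14 was at least 5.83-fold higher than sham (edgeR adjusted p = 0.043), and the log2 fold change from day 2 was 3.90 ± 0.61 (adjusted p = 0.0232). The share of genes called was low, 1.01% for day 2 against sham, 1.53% for day 14 against sham (1.03% higher) and 0.893% between the times (0.435% higher).

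Marker sums in dendritic cells differed as well. The monocyte markers summed to 2209 to 3079 CPM in sham, 2853 to 6378 CPM at day 2 and 3437 to 5881 CPM at day 14. The 6 NK cell markers summed to 0 to 164.9 CPM in sham, 133.1 to 243.1 CPM at day 2 and 193.7 to 259.9 CPM at day 14, with Ncr1, Klrb1c, Klra4 and Klra8 at 0 in sham and at day 14. For both lists day 14 did not overlap sham and overlapped day 2, and their part in the Cxcl9 result was not tested.

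Both Cxcl9 calls in dendritic cells were near the threshold. Leaving out any 1 of the 8 libraries raised the adjusted p against sham to between 0.0525 and 0.0981. The call between day 14 and day 2 was lost without day 2 library 1, 3 or 4 (adjusted p = 0.0747, 0.0825 and 0.064) and without day 14 library 1, 3 or 4 (0.0539, 0.0575 and 0.0696). Few cells carried the transcript, and the single highest cell held 25.2% to 49.9% of a day 14 library's Cxcl9 counts in dendritic cells.

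Cxcl16 in dendritic cells was at 188, 327, 341 and 248 CPM in sham, at 344, 292, 563 and 347 CPM at day 2, and at 749, 388, 567 and 506 CPM at day 14. The day 14 libraries were all above sham, yet the log2 fold change of 1.03 ± 0.30 did not pass adjustment (edgeR adjusted p = 0.127). Without the filter on low counts it was 1.39 (adjusted p = 0.0393). Cxcl10 in dendritic cells ranged from 25.1 to 138 CPM in sham, 20.6 to 202 CPM at day 2 and 76.0 to 372 CPM at day 14, with overlapping groups and a log2 fold change of 0.88 ± 0.78 at day 14 (adjusted p = 0.757).

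Border-associated macrophages, the resident macrophages of meninges and perivascular spaces, carried Cxcl10 and Cxcl16 in sham already. Cxcl10 was at 61.7, 221, 383 and 256 CPM in sham, at 320, 215, 266 and 37.0 CPM at day 2, and at 651, 83.3, 511 and 403 CPM at day 14. Cxcl16 was at 218, 182, 244 and 718 CPM in sham, at 310, 307, 451 and 221 CPM at day 2, and at 338, 248, 748 and 852 CPM at day 14. The groups overlapped for both genes and neither was called in any comparison by edgeR. The background was 2.67% of genes called for day 2 against sham, 0.0762% for day 14 against sham and 0.838% between the times. Cxcl9 was at 0 in all 12 libraries, which allows up to 7.95 CPM in sham and 15.6 CPM at day 14.

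Endothelial cells of the vessel wall held little of the chemokines, and no member passed the filter there, so no call was possible. Cxcl10 was at 0, 0, 6.53 and 0 CPM in sham, at 13.7, 30.3, 0 and 15.2 CPM at day 2, and at 18.5, 34.9, 0 and 20.5 CPM at day 14. The sham value came from 0.77 counts in 1 library, and library 3 of each stroke group was at 0, so no fold is given. In granulocytes, Cxcl10 reached 1089 CPM in day 14 library 1, but 1 cell held 95.7% of those counts, and 1 cell held 70.3% of the counts behind the 239 CPM of day 14 library 3. The sham libraries of granulocytes lay between 0 and 31.7 CPM.

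Over the 12 young brain libraries, the highest mean of Cxcl10 was in monocyte-derived cells (361 ± 203 CPM, SD), before border-associated macrophages (284 ± 184) and microglia (181 ± 207), and the ranges of these 3 types overlapped. Cxcl16 was highest in dendritic cells (405 ± 160 CPM) and border-associated macrophages (403 ± 235), which did not differ beyond their spread. Microglia (196 ± 134 CPM) and monocyte-derived cells (179 ± 110 CPM) followed for Cxcl16. These SDs include the differences between groups. Cxcl9 was at 0 in sham in these types, so its order is given at day 14 alone, where dendritic cells (97.5 ± 54.6 CPM, 61.4 to 177) lay above microglia (24.6 ± 13.2 CPM, 13.2 to 43.6) without overlap. Microglia and monocyte-derived cells (20.2 ± 9.86 CPM, 6.08 to 29.0) overlapped. B cells of the same libraries held 1.49 CPM of Cxcl10 on average.

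The share of a brain library's counts that each type held also moved with the sorted mix of cells, so the following is a description of the suspensions. Microglia held on average 42.3% of a sham library's Cxcl10 counts and border-associated macrophages 31.3%. At day 2 monocyte-derived cells held 73.0% on average, while the microglial share ran from 0.781% to 55.8% across libraries. At day 14 monocyte-derived cells held 52.7% and microglia 34.2%. Cxcl16 counts lay mostly in microglia in sham (67.7%), in monocyte-derived cells at day 2 (52.7%), and were divided at day 14 among microglia (38.6%), dendritic cells (29.5%) and monocyte-derived cells (29.4%). Cxcl9 counts at day 14 lay in dendritic cells (43.9%), microglia (36.5%) and monocyte-derived cells (18.7%).

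**Figure D2:**
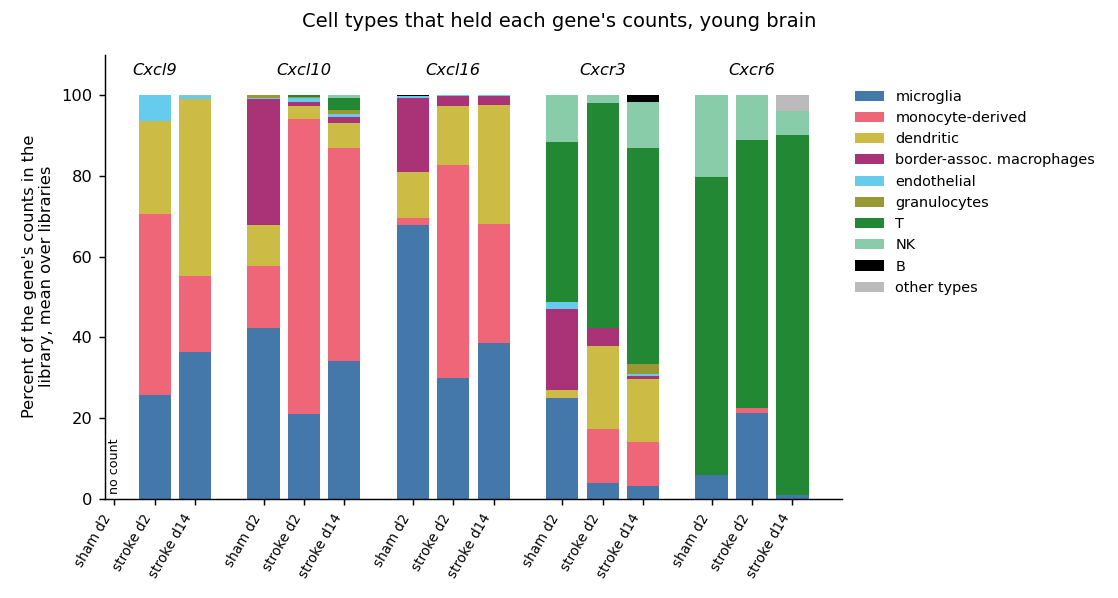
Share of each gene's counts held by each annotated cell type in young brain. Bars are means of the percentages over the libraries with any count of the gene, by group, and add up to 100%. Microglia hold 67.7% of Cxcl16 counts in sham and 38.6% at day 14, and T cells hold 89.0% of Cxcr6 counts at day 14.

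The authors' finer annotated types split the chemokines unevenly, and these values are descriptions, since the types were made from the same cells. Levels and shares are pooled over sham, day 2 and day 14, so they also follow which group a finer type's cells came from. In monocyte-derived cells, type MdC4 was 15.6% of the cells and held 73.7% of the Cxcl10 counts and 74.1% of the Cxcl9 counts, at 1973 CPM of Cxcl10. In dendritic cells, type DC6 was 7.08% of the cells and held 70.1% of Cxcl10, at 1147 CPM. Both types stood out in 10 type I interferon targets (Isg15, Ifit1, Ifit2, Ifit3, Rsad2, Oasl2, Mx1, Usp18, Irf7 and Cmpk2), which summed to 9393 CPM in MdC4 and 9111 CPM in DC6.

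The other leading types did not all have high interferon targets. BAM2 held 77.9% of the Cxcl10 of border-associated macrophages in 33.5% of the cells, at 624 CPM and a list sum of 1361 CPM. Microglial types Mg6 (434 CPM of Cxcl10) and Mg5 (396 CPM), the latter with 474 CPM of the proliferation gene Mki67, had list sums of 393 and 473 CPM. Mg6 held 12.1% and Mg5 28.0% of the microglial Cxcl10 counts, less than the 46.7% in Mg3. Mg3, with a list sum of 1521 CPM, held 86.3% of the microglial Cxcl9 counts in 19.4% of the cells. Most Mg3 cells were from day 14 (3415, against 133 at day 2 and 70 in sham, in libraries with at least 20 of them), where the Cxcl9 mean was 34.6 CPM in Mg3 (16.8 to 60.2) beside 24.6 CPM in all microglia.

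Cxcl16 was highest in DC5, at 1597 CPM, a type with 3250 CPM of Ccr7, the lymph-node homing receptor, and 1697 CPM of Fscn1, an actin-bundling gene of mature dendritic cells. DC5 was 10.3% of dendritic cells and held 38.3% of their Cxcl16 counts. Within DC6, the mean of Cxcl9 was 39.1 CPM at day 2 (3 libraries, 0 to 117) and 344 CPM at day 14 (4 libraries, 144 to 729). Within MdC4, the mean of Cxcl9 was 18.6 CPM at day 2 (4 libraries, 0 to 68.3) and 60.1 CPM at day 14 (4 libraries, 13.01 to 95.2), with overlapping ranges. Library 3 held 39 of the 42 Cxcl9 counts of all monocyte-derived cells at day 2. The mean of Cxcl10 in MdC4 was 1814 CPM at day 2 (1307 to 2529) and 1926 CPM at day 14 (1421 to 2591).

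Over 55 finer types of young brain, log2(CPM + 1) of the summed interferon targets and of a chemokine correlated with Pearson's r of 0.51 for Cxcl10 (Spearman's rho 0.47), 0.53 for Cxcl9 (0.47) and 0.31 for Cxcl16 (0.44). Over the 27 finer types of microglia, monocyte-derived cells, dendritic cells and border-associated macrophages r was 0.54 for Cxcl10 (rho 0.38), 0.64 for Cxcl9 (0.66) and 0.52 for Cxcl16 (0.52). These are correlations across types that share libraries and depth, and are given as descriptions.

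**Figure D3:**
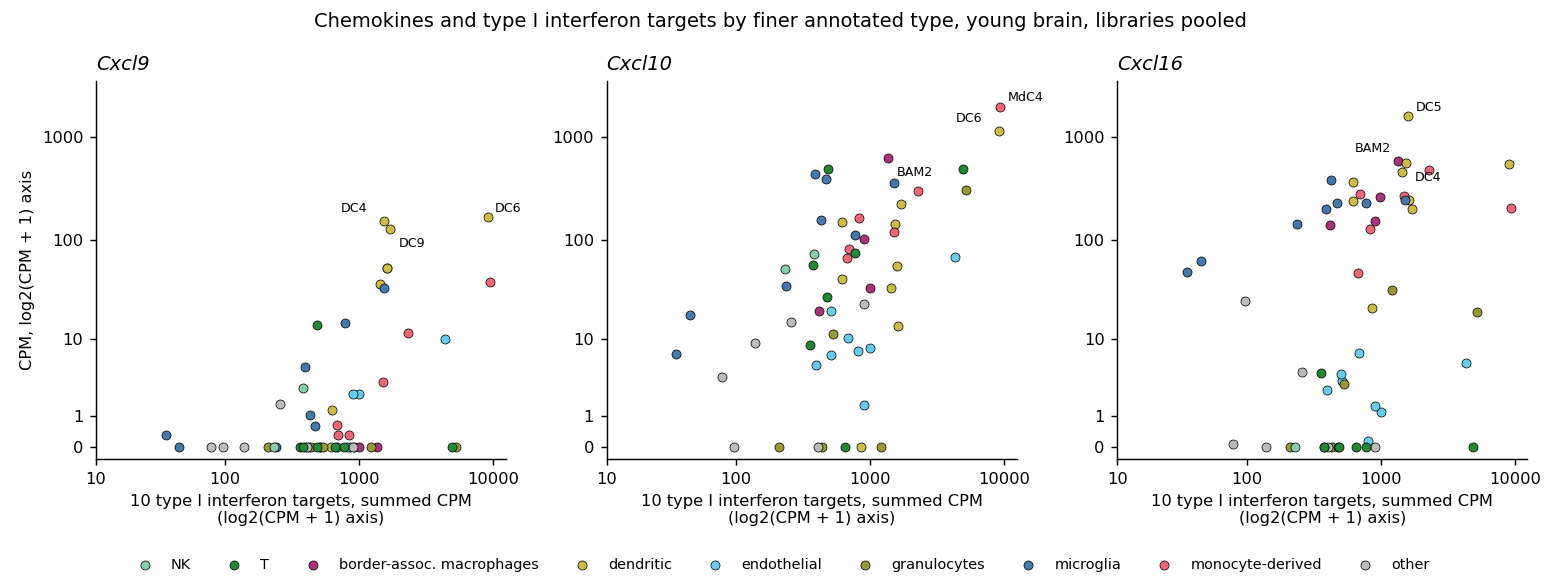
Pooled CPM of Cxcl9, Cxcl10 and Cxcl16 in the finer annotated types of young brain against the summed CPM of 10 type I interferon targets. Both axes are log2(CPM + 1) scales labelled in CPM, each point is a finer type with libraries pooled, and the 3 types with the highest level of each chemokine are named. MdC4 and DC6 lie at the upper right for Cxcl10, and DC5 is highest for Cxcl16.

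Of the 10 type I interferon targets, 10 of 10 rose in microglia at day 2 (median log2 fold change 4.14, against -0.05 for all genes tested) and 10 of 10 at day 14 (median 5.29, against -0.04). Of all genes tested 15.7% rose at day 2 and 10.6% at day 14. At day 14, 5 of 10 were higher than at day 2, beside 3.47% of all genes. Ifit1, which encodes a protein that binds viral RNA, rose by 4.39 ± 0.65 at day 2 (edgeR adjusted p = 0.000397), and its relative Ifit2 by 6.02 ± 0.43 at day 14 (adjusted p = 1.77e-06). In monocyte-derived cells 8 of 10 rose at day 2 (median 2.56, against 0.29 for all genes, of which 5.66% rose) and 9 of 10 at day 14 (median 3.32, against 0.28, with 4.21% rising). In dendritic cells 2 of 9 tested rose at day 2, beside 1.01% of genes called in either direction, and 7 of 9 at day 14, beside 1.03% that rose.

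Of 18 targets more typical of interferon-gamma 15 were tested in microglia. At day 2, 2 rose and 3 fell, beside 31.4% of all genes called and 15.7% called as higher, so these shares were near the background. At day 14, 7 rose and 2 fell, beside 15.2% of all genes called and 10.6% called as higher. At day 14, 5 of the 15 were higher than at day 2 and 1 was lower, beside 6.93% of all genes called and 3.47% called as higher. Iigp1, an immunity-related GTPase, rose by 5.08 ± 0.69 at day 14 (edgeR adjusted p = 0.000246), whereas Gbp7, a guanylate-binding protein, fell by 2.60 on the log2 scale (adjusted p = 0.000103). In monocyte-derived cells 0 of 17 were called at day 2, beside 6.71% of all genes, and 5 rose at day 14, beside 4.21% called as higher. Among the 5 were the GTPase gene Irgm1 (2.74 ± 0.56, edgeR adjusted p = 0.00897) and Gbp7 (1.79 ± 0.43, adjusted p = 0.0236). In dendritic cells 0 of 11 and 1 of 11 were called, against 1.01% and 1.53% of all genes.

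Ifngr1, a chain of the interferon-gamma receptor, fell in microglia by 1.36 at day 2 (edgeR adjusted p = 0.00199) and by 0.89 at day 14 (adjusted p = 0.0296) on the log2 scale. Other interferon signalling genes went both ways. Jak1 fell by 1.24 at day 2 (adjusted p = 0.0211), and Stat2 rose by 1.95 ± 0.25 at day 14 (adjusted p = 0.000172). From day 2 to day 14 Stat2 rose by 1.17 ± 0.26 (adjusted p = 0.0172) and Ifnar2 by 0.62 ± 0.17 (adjusted p = 0.0395). Of all genes tested in microglia 31.4% were called at day 2, 15.2% at day 14 and 6.93% between the times. Ifng itself was at 0 CPM in every young brain library of microglia and dendritic cells. It was seen in T cells, at 0 CPM in sham and at means of 107.5 CPM at day 2 (0 to 269.9) and 58.4 CPM at day 14 (0 to 85.4). Sham T cells held only 96120 counts in all, so a low level of Ifng there could have gone unseen. In NK cells its mean was 284 CPM at day 2 (2 libraries, 237 to 332 CPM, 40517 counts of all genes). At day 14 the NK cell mean was 84.0 CPM (3 libraries, 48.3 to 143 CPM). The 1 sham library of NK cells had 0 CPM in only 8511 counts.

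Of 10 other genes of the CXCR3 and CXCR6 axis (Cxcl11, Dpp4, Adam10, Adam17, Il12b, Il15, Il18, Tnf, Nfkb1 and Rela), 7 were tested in microglia, where Nfkb1 fell by 1.12 on the log2 scale at day 2 (edgeR adjusted p = 0.0145) and Tnf rose by 2.32 ± 0.70 at day 14 (adjusted p = 0.0403). These single calls lay below or near the 31.4% and 15.2% of all genes called there. None of the 8 tested in monocyte-derived cells or the 6 in dendritic cells was called against sham, where 6.71% and 5.15% of all genes were called in monocyte-derived cells and 1.01% and 1.53% in dendritic cells at day 2 and day 14. Cxcl11, the remaining CXCR3 ligand gene and annotated as a polymorphic pseudogene in GENCODE, had no count in young sham brain, which allows up to 13.1 CPM in monocyte-derived cells and 15.1 CPM in dendritic cells. At day 14 it was at 14.6 CPM in pooled monocyte-derived cells and at 14.0 CPM in pooled dendritic cells, the latter within that limit.

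Cxcr3, the receptor of CXCL9 and CXCL10, and Cxcr6, the receptor of CXCL16, were highest in T cells and NK cells. Over young brain libraries Cxcr3 had a mean of 180 ± 95.9 CPM in T cells (11 libraries) and 113 ± 81.7 CPM in NK cells (6 libraries), which overlapped. Cxcr6 had a mean of 279 ± 164 CPM in T cells and 220 ± 297 CPM in NK cells, and no other type had a library above 3.01 CPM. Among dendritic cells, Cxcr3 was at 62.8 CPM in DC2, a type with 400 CPM of Xcr1, which marks cross-presenting cells, and at 47.3 CPM in DC8, which had 3782 CPM of Siglech, a plasmacytoid marker. DC2 held 69.5% of the Cxcr3 counts of brain dendritic cells.

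In brain T cells, Cxcr3 was at 240, 80.6, 74.7 and 61.5 CPM in sham. It was at 115, 300 and 351 CPM at day 2, where library 4 had only 12 T cells and was left out, and at 217, 148, 233 and 161 CPM at day 14. Sham library 1 was the only sham library above 80.6 CPM, and through it the groups overlapped. Its value came from 6.93 Cxcr3 counts in 53 T cells. The T cells of a sham library held 15809 to 28933 counts of all genes, so all sham levels rest on few Cxcr3 counts. The log2 fold change was 1.01 ± 0.52 at day 2 and 0.63 ± 0.48 at day 14 (edgeR adjusted p = 0.727 and 0.757).

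Cxcr6 in brain T cells was at 103, 238, 224 and 0 CPM in sham, at 441, 225 and 337 CPM at day 2, and at 334, 337, 613 and 213 CPM at day 14. Most stroke libraries were above sham, but the ranges met between 213 and 238 CPM. The log2 fold change was 1.07 ± 0.59 at day 2 (edgeR adjusted p = 0.727) and 1.26 ± 0.53 at day 14 (adjusted p = 0.563). The 4 sham libraries held 14.8 Cxcr6 counts in 222 T cells. In brain T cells 0 of 1048 genes were called at day 2 by edgeR (75 at an unadjusted p under 0.05, 0 by DESeq2), and 0.0954% were called at day 14.

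Cxcr6 was unevenly spread over finer T cell types. Tc4, with 2214 CPM of the gamma-delta T cell receptor gene Trdc, was 8.45% of brain T cells and held 37.1% of their Cxcr6 counts, at 1468 CPM. Its Cxcr3 level was 57.1 CPM. Tc2 and Tc3 had the highest Cxcr3, at 305 and 285 CPM, with 375 and 303 CPM of Cxcr6. Tc6 had 504 CPM of Cxcr6 but only 47.3 CPM of Cd3e, a T cell receptor chain gene, beside 1450 CPM of Il7r, the interleukin-7 receptor. In blood the type numbered Tc3 had 306 CPM of Cxcr3 and 285 CPM of Cxcr6.

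In brain NK cells only 1 sham library had enough cells, so day 14 was compared with day 2 alone. Cxcr6 was at 807 and 83.0 CPM at day 2 and at 122, 26.8 and 48.4 CPM at day 14, with a log2 fold change of -2.31 ± 1.07 (edgeR adjusted p = 0.857, with 0 of 1685 genes called, 56 at an unadjusted p under 0.05 and 1 called by DESeq2). Cxcr3 was at 0 and 166 CPM at day 2 and at 71.1, 125 and 80.8 CPM at day 14, and did not pass the filter. The NK cell markers summed to 3198 CPM in day 2 library 1 and 7763 CPM in day 2 library 3, and to 4780 to 7542 CPM at day 14. The microglial markers summed to 753.6 CPM in day 2 library 1 and 159 CPM in day 2 library 3. The part of these markers in the results was not tested.

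In blood, Cxcr3 in T cells was at 86.1, 75.5, 89.2 and 52.9 CPM in sham, at 32.8, 88.2, 42.5 and 94.2 CPM at day 2, and at 74.4, 43.0 and 119.5 CPM at day 14. Cxcr6 was at 145.9, 47.4, 70.3 and 61.0 CPM in sham, at 35.6, 44.2, 48.8 and 84.4 CPM at day 2, and at 80.8, 82.8 and 163 CPM at day 14. The groups overlapped for both receptors. In blood T cells 0 of 5731 genes were called in any of the 3 comparisons by edgeR or DESeq2 (138, 102 and 162 at an unadjusted p under 0.05). In blood NK cells Cxcr3 had a mean of 83.4 ± 51.5 CPM over 11 libraries and Cxcr6 a mean of 8.00 ± 13.2 CPM. The blood type DC5, with 6494 CPM of Siglech, had 117 CPM of Cxcr3.

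The chemokines were scarce in blood. Cxcl10 in blood monocytes was at 0, 0, 0 and 14.5 CPM in sham, at 0 in all 4 day 2 libraries, and at 34.8, 32.5 and 0 CPM at day 14. Pooled day 14 monocytes, at 26.0 CPM, were at least 13.8-fold higher than day 2, but 1 of 3 libraries had none and the gene did not pass the filter. Type Mo4, whose interferon targets summed to 3060 CPM, had 98.6 CPM of Cxcl10. Cxcl16 had a mean of 16.0 CPM in blood dendritic cells and 1.41 CPM in monocytes.

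At day 14 after stroke, T cells of brain and blood were compared directly. Tissue and isolation procedure cannot be told apart in this comparison. Cxcr6 was higher in brain, at 374 ± 170 CPM (SD, n = 4) against 109 ± 47.1 CPM (n = 3), a log2 fold change of 1.66 ± 0.44 (edgeR adjusted p = 0.0187), with no overlap. The call was lost without brain library 3 (1.39, adjusted p = 0.069), blood library 1 (1.55, adjusted p = 0.102) or blood library 2 (1.55, adjusted p = 0.105). Cxcr3 was at 190 ± 41.6 CPM in brain and 79.0 ± 38.5 CPM in blood, without overlap, and its change of 1.12 ± 0.38 did not pass adjustment (adjusted p = 0.0733). Of all genes tested in T cells 7.14% were called, and 4.79% were called as higher in brain.

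T cell genes around the receptors differed in the same comparison. All 7 recirculation genes were lower in brain (median log2 fold change -2.14, against 0.07 for all genes), among them Lef1, a transcription factor of naive cells (-3.26 ± 0.33, edgeR adjusted p = 9.32e-07), and Ccr7 (-3.17 ± 0.43, adjusted p = 1.97e-05). Of 12 effector and residence genes tested 5 were higher in brain and 0 lower. The 6 NK cell markers summed to 282.8 to 571.4 CPM in the brain T cells and to 99.66 to 299.6 CPM in the blood T cells, and the 6 monocyte markers to 1989 to 2615 CPM and to 988 to 1400 CPM. The part of these markers in the results for Cxcr6 and the effector genes was not tested. The genes higher in brain included Rgs1, a regulator of G-protein signalling (5.13 ± 0.43, adjusted p = 9.84e-08), Gzmb, which encodes granzyme B (3.83 ± 0.56, adjusted p = 6.36e-05), and Ifng (3.85 ± 1.07, adjusted p = 0.0302). Of 8 type I interferon targets tested 6 were higher, such as Isg15 (3.49 ± 0.46, adjusted p = 1.62e-05).

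Cxcl10 was also counted in brain T cells. It was at 80.4, 125, 159 and 78.6 CPM at day 14 in brain and at 3.13, 0 and 0 CPM in blood. The log2 fold change was 5.94 ± 1.11 (edgeR adjusted p = 0.00219), while DESeq2 gave 6.51 (adjusted p = 0.134). No blood T cell library of any group was above 3.13 CPM, so Cxcl10 passed the filter on low counts through its brain libraries. The call is therefore given as a description. The ratio of pooled CPM was 106 (95% interval 26.9 to 845, counting error only). The part of the monocyte markers, whose sums are given above, was not tested for Cxcl10 either. The single highest cell held 16.4% to 49.3% of a day 14 library's Cxcl10 counts in T cells. Type Tc3, whose interferon targets summed to 4922 CPM and which had 534 CPM of Cd3e, had 488 CPM of Cxcl10.

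In NK cells of brain and blood at day 14, where 3.04% of genes were called, Cxcr3 was at 92.2 ± 28.6 CPM and 90.4 ± 54.9 CPM (log2 fold change 0.13 ± 0.68, edgeR adjusted p = 0.955). Cxcr6 was at 65.7 ± 49.9 CPM in brain and 15.0 ± 19.8 CPM in blood (2.16 ± 1.05, adjusted p = 0.301), with overlapping libraries.

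**Figure D4:**
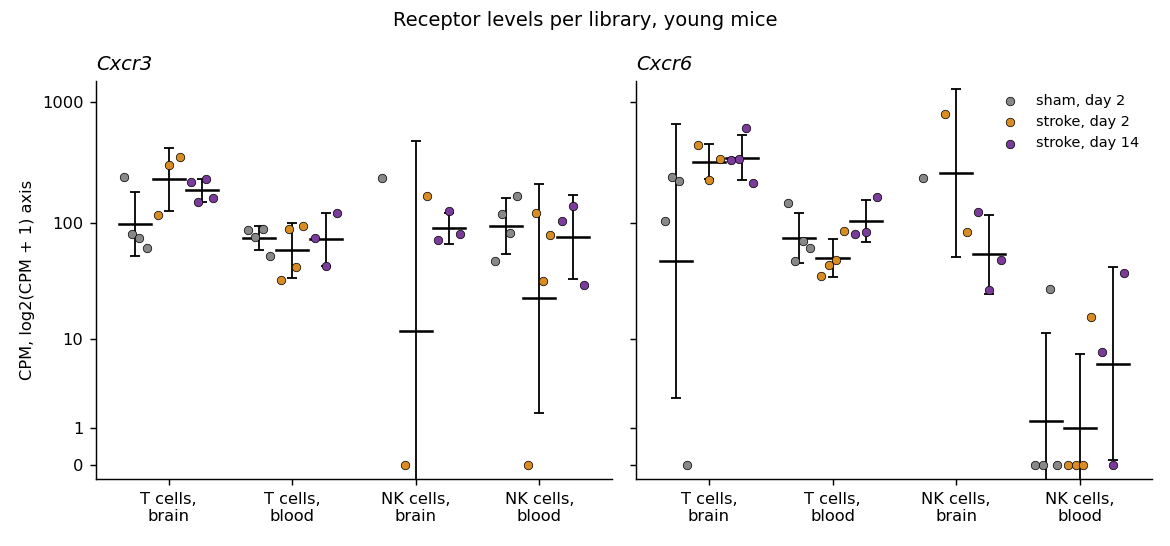
Levels of Cxcr3 and Cxcr6 in T cells and NK cells of brain and blood of young mice. Each point is a library with at least 20 cells, on a log2(CPM + 1) axis labelled in CPM, and bars show the mean and SD of log2(CPM + 1). Brain T cells at day 14 lie at 213 to 613 CPM of Cxcr6, above the 80.8 to 163 CPM of blood T cells at day 14.

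In aged mice, microglial Cxcl10 was at 63.3 CPM in the male and 25.9 CPM in the female sham library, and at 204 CPM in the male and 424 and 57.0 CPM in the female stroke libraries at day 2. One stroke library thus lay within the sham range, and the log2 fold change of 2.61 ± 0.90 did not pass adjustment (edgeR adjusted p = 0.155), where 2.3% of genes were called. Cxcl16 was at 86.3 and 102 CPM in sham and at 297, 299 and 123 CPM at day 2, without overlap (1.45 ± 0.42, edgeR adjusted p = 0.0836). The microglial markers summed to 24270 and 24930 CPM in sham and to 12510, 11640 and 20010 CPM at day 2, the last in female stroke library 2. The monocyte markers summed to 42.0 and 43.9 CPM in sham and to 50.2, 101.9 and 123.1 CPM at day 2. The part of these markers in the results for aged microglia was not tested. Without female stroke library 2 the change of Cxcl16 was 1.72 (adjusted p = 0.0247), and DESeq2 gave 1.24 (adjusted p = 0.0492). Without the male sham library, whose microglia carried T cell markers, the changes were 3.21 for Cxcl10 (adjusted p = 0.245) and 1.28 for Cxcl16 (adjusted p = 0.312), with the remaining sham library assumed to vary like the other groups. Cxcl9 was at 2.76 and 0.607 CPM in sham and at most 0.929 CPM at day 2, from 1 count or none in each library.

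The stroke effect in aged minus that in young microglia was -1.25 ± 1.08 for Cxcl10 (edgeR adjusted p = 0.83) and -1.03 ± 0.51 for Cxcl16 (adjusted p = 0.768). The young libraries were all male and the aged libraries of both sexes, so sex was mixed with age in this difference. Over the alternative settings, sex as a term among them, the difference ran from -1.36 to -0.3 for Cxcl10 and from -1.03 to -0.82 for Cxcl16. Without the aged male sham library the difference was -0.67 for Cxcl10 and -1.23 for Cxcl16. No gene of 11096 was called for this difference by edgeR, 623 had an unadjusted p under 0.05 and 1 was called by DESeq2. Of the type I interferon targets 9 of 10 rose in aged microglia at day 2 (median 3.09, against -0.02 for all genes tested, of which 2.3% were called in either direction), led by Ifit1 (3.75 ± 0.82, adjusted p = 0.0254).

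The single aged library at day 14 had microglia with 0 CPM of Cxcl9, 72.7 CPM of Cxcl10 and 208 CPM of Cxcl16, with no replicate check. The young day 14 libraries held 13.2 to 43.6 CPM of Cxcl9 in microglia. Of the 9 Cxcl9 counts of the aged day 14 library, border-associated macrophages held 6 (57.4 CPM), dendritic cells 2 (26.6 CPM) and monocyte-derived cells 1 (17.3 CPM). Border-associated macrophages of the aged female sham library had 35.4 CPM of Cxcl9 from 2 counts. In aged brain T cells, Cxcr6 was at 262 and 500.5 CPM in sham, at 409, 332 and 478 CPM at day 2 and at 402 CPM at day 14, and Cxcr3 was at 81.8 and 125 CPM in sham, at 103, 260 and 403 CPM at day 2 and at 283 CPM at day 14. The first sham value of each receptor is from the male library whose T cells carried microglial markers, and these T cell levels were not tested.

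**Figure D5:**
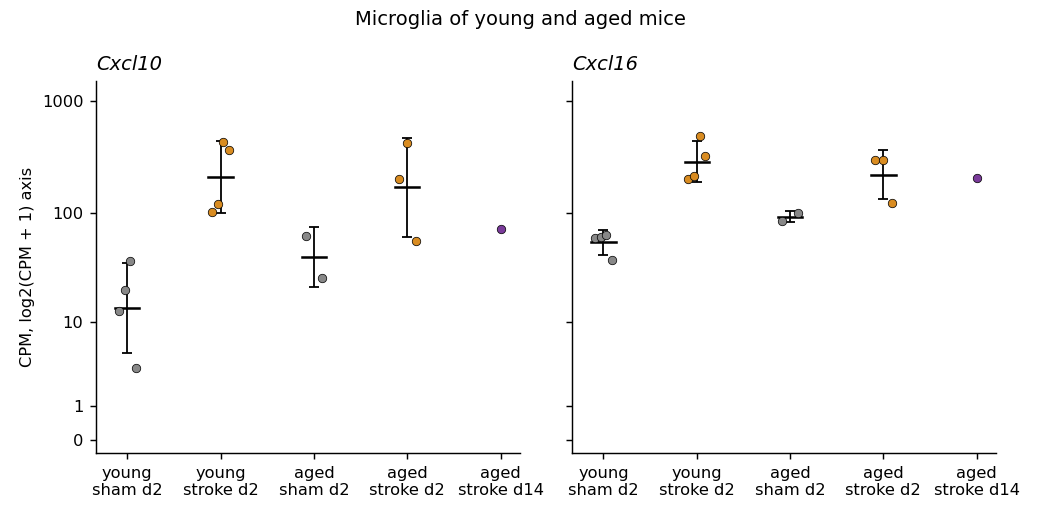
Cxcl10 and Cxcl16 in microglia of young and aged mice. Each point is a library, on a log2(CPM + 1) axis labelled in CPM, with bars for the mean and SD of log2(CPM + 1), and the aged day 14 group is 1 library. Aged stroke libraries of Cxcl10 at day 2 lie at 57.0 to 424 CPM, and the lowest is inside the aged sham range of 25.9 to 63.3 CPM.

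Across 102 combinations of library and parent type in young brain, the genes whose log2(CPM + 1) was most like each member were ranked by Pearson's r among 6456 or 6457 genes whose mean reached 20 CPM. These combinations share libraries and cell types, so r describes mainly which types carry a gene. Cxcl9 was most like Ifi205 (r = 0.52), Apoc1 (0.509) and Phf11a (0.502), followed by Itgax and Tent5c. Cxcl10 was most like Ccl9 (0.713), Ifi204 (0.706) and Rab7b (0.7), followed by Ifi207 and Ifi211. Cxcl16 was most like P2ry6 (0.856), Slamf9 (0.845) and Cyp27a1 (0.843), followed by Clec4a3 and Ccl9. Cxcr3 was most like Ms4a4b (0.782), Trbc2 (0.766) and Cd3d (0.723), followed by Skap1 and Lat. Cxcr6 was most like Skap1 (0.969), Il2rb (0.958) and Gzmb (0.937), followed by Nkg7 and Trbc1. Between members, r was 0.666 for Cxcl10 and Cxcl16, 0.353 for Cxcl9 and Cxcl10 and 0.678 for Cxcr3 and Cxcr6.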

How the data were processed

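Per the labels, cells were profiled by Drop-seq. The authors deposited expected counts per gene and cell, with their cell type annotation, and the submitters' processing notes name mm10 and Seurat; the aligner and the counting step are not given in the sources used here. Counts were summed per library and the authors' parent type, and CPM were computed from these sums. Sums were rounded and tested with edgeR 4.0.16 (quasi-likelihood, TMM, filterByExpr; limma 3.58.1, R 4.3.3) over all genes, for types with at least 20 cells per library and 2 libraries per group, and called at an adjusted p under 0.05. The members passed the filter only in the types where a test is given. Alternatives were DESeq2 1.42.0, no TMM, no filter, at least 50 cells, counts rounded up per cell, only the groups compared, sex as a term, a replicate block, leaving cells with T cell receptor genes out of other types and leaving out each library. A term for the mitochondrial split was added to the young brain fits after seeing the data. The members and gene lists were chosen with earlier results of these data known. Named list genes are at most the 3 called genes of each list with the largest change, and likeness used the 5 highest r. The scripts were tested on simulated data. Doublets were not called; the authors' filters on cells were kept as deposited. Intervals and limits (95%, 3 counts) cover counting error only. One gene of the interferon signalling list is not reported here.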

Additional observations from a re-analysis of the deposited data

Results flagged for a closer look

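In 7 of 39 groups of 4 libraries with enough counts, 1 library lay far from the other 3. For independent, normally distributed values chance would flag about 1 in 20 groups by this criterion. The 39 groups share libraries and some hold few counts, so the 7 cannot be judged against that rate. In sham, border-associated macrophages of library 4 had 717.5 CPM of Cxcl16 (13.29 counts, others 182.3 to 244.0 CPM). Microglia of sham library 4 had 37.76 CPM of Cxcl16 (47.22 counts, others 60.76 to 64.7 CPM). T cells of sham library 1 had 239.7 CPM of Cxcr3 (6.93 counts, others 61.51 to 80.58 CPM). At day 2 after stroke, monocyte-derived cells of library 2 had 181.9 CPM of Cxcl10 (others 412.4 to 446.5), and those of library 3 had 12.4 CPM of Cxcl9 (others 0 to 0.6948). At day 14, dendritic cells of library 1 had 372.2 CPM of Cxcl10 (others 76.03 to 89.99), and monocyte-derived cells of library 3 had 330.1 CPM of Cxcl16 (others 265.5 to 274.6).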

How the results depend on the processing

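In microglia the 3 chemokines called at day 14 against sham were called under every alternative run. Across all comparisons the number of the 5 genes called stayed within 1.5 times in 330 alternative fits and moved in 33. The 330 include fits where the main fit and the alternative both called 0, so they do not measure how stable the calls were. The 33 include all 8 fits of dendritic cells at day 14 against sham that left out 1 library. With only the groups compared in the fit it was 2 in microglia at day 2, where Cxcl9 did not pass the filter on low counts. It became 1 in monocyte-derived cells at day 2 without TMM, 2 in dendritic cells at day 14 against sham with no filter or with counts rounded up, and 0 there with only the groups compared. It became 1 in brain T cells at day 2 and at day 14 with no filter (Cxcl10), 1 in aged microglia with DESeq2 (Cxcl16) or no filter (Cxcl10), 1 for T cells of brain against blood with DESeq2, and 1 for NK cells of brain against blood with no filter (Cxcl10). With the replicate number as a block, 1 gene was called in monocyte-derived cells between day 14 and day 2 (Cxcl9, 2.72, adjusted p = 0.022), and Cxcr3 in NK cells of brain against blood turned to -0.21. The main fits did not treat libraries of the same number as pairs. Between same-numbered libraries of different groups, deviations from the group mean correlated with r from -0.08 to 0.79 in monocyte-derived cells. In dendritic cells r ran from -0.12 to 0.79 and in microglia from -0.29 to 0.59. In young brain the mitochondrial split followed the number, except that sham library 2 was above 1%.

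Leaving out 1 library, the number called ranged from 2 to 3 in microglia at day 2 and from 0 to 1 between the times. It ranged from 1 to 2 in monocyte-derived cells at day 2, 0 to 1 there between the times, 0 to 0 in dendritic cells at day 14 against sham and 0 to 1 between the times. It ranged from 0 to 1 in aged microglia and 1 to 2 for T cells of brain against blood. Between the times in microglia, Cxcl16 was 0.08 with DESeq2, 0.00 with the mitochondrial split as a term (added after seeing the data) and 0.19 with counts rounded up, and ranged from -0.29 to 0.19 without 1 library, while Cxcl10 ranged from -0.43 to 1.21. Uncalled changes that also turned sign were Cxcl10 in dendritic cells (-0.07 to 1.48 against sham and -0.47 to 0.87 between the times at day 14), and Cxcl10 (-0.72 to 0.27) and Cxcl16 (-0.15 to 0.48) in border-associated macrophages at day 2. The others were Cxcr6 in brain T cells (-0.15 to 0.43) and NK cells (-3.38 to 0.06) between the times, and in blood T cells Cxcr3 (-0.30 to 0.30) and Cxcr6 (-0.03 to 0.85) at day 14 against sham and Cxcr3 (-0.07 to 0.65) between the times. Cxcr3 in NK cells of brain against blood ranged from -0.34 to 0.60. The cause of these changes was not tested. The metadata used here name no technical batch. The terms run in its place were the mitochondrial split, in the young brain fits, and the replicate block. The mitochondrial split changed no call. The replicate block added the call of Cxcl9 in monocyte-derived cells between day 14 and day 2. Brain T and NK cells were few per library, and the part of depth in the receptor comparisons was not tested.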
